A study of Homo sapiens with 9 samples.

Results

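The interferon response and antigen presentation genes were taken by symbol from a table of read counts: 48 genes, made up of IRF/STAT transcription factors, guanylate-binding proteins (GBPs), sensors of foreign nucleic acid, antiviral effectors, other interferon-induced genes, the PARP9-DTX3L group and genes of MHC class I antigen presentation. Every one of the 48 had a row among the 61209 symbols of the table, with RIGI under its older symbol DDX58, and 43 passed the filter on low counts together with 16933 other genes (16976 genes tested). The cells were GIST-T1 (T1), an imatinib-sensitive human gastrointestinal stromal tumor (GIST) line that carries a KIT exon 11 deletion. Libraries of 3 groups, 3 in each, were sequenced from polyA RNA 48 h after transfection. The siNC group received a non-target siRNA, the siERRα group received ESRRA siRNA to knock down estrogen-related receptor alpha (ERRα), and the imatinib group received the non-target siRNA plus 50 nM imatinib, an inhibitor of KIT. All 3 groups therefore received Lipofectamine and an siRNA, but the siRNA of the siERRα group differed from that of the others. Any effect of the ESRRA siRNA other than the knockdown was not tested and cannot be told apart from loss of ERRα. No group was left untransfected or given an interferon, and no group combined ESRRA siRNA with imatinib. The cells of a group were plated as 3 replicates of a single line, and nothing says that these were separate experiments, so each p-value reflects no more than library-to-library spread, which may be technical.

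Interferons are secreted proteins that signal through cell surface receptors and JAK kinases to STAT and IRF factors. STAT2 and IRF9 form part of the complex that binds the interferon-stimulated response element (ISRE), whereas STAT dimers bind the gamma-activated site (GAS). The induced genes include sensors such as RIG-I and MDA5 (RIGI and IFIH1), effectors that block viral entry, translation or replication, and the MHC class I pathway, in which TAP1 and TAP2 carry peptides into the endoplasmic reticulum, TAPBP helps to load them, and HLA heavy chains paired with β2-microglobulin (B2M) present them to T cells. NLRC5 is the transactivator of the class I genes. Many of these genes also keep a basal level in cells that meet no interferon.

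The libraries held 37527236 to 49363002 counts, and no pair of libraries within a group agreed within sampling noise. Levels are given as TMM-scaled CPM, a gene's count relative to all counts of its library. ESRRA measured 40.7, 44.7 and 40.9 CPM in the siNC libraries, 1.41, 0.757 and 1.34 CPM in the siERRα libraries and 30.4, 32 and 35.6 CPM in the imatinib libraries. It fell by 5.18 on the log2 scale after knockdown (SE 0.13, edgeR adjusted p = 6.28e-15) and by 0.37 with imatinib (SE 0.09, edgeR adjusted p = 3.83e-03). The GIST markers KIT, ANO1, ETV1, PRKCQ, CD34, FOXF1, PDGFRA and HAND1 were present in all libraries, with summed levels of 3815–3938 CPM in siNC, 4141–4286 CPM in siERRα and 4013–4237 CPM in imatinib. The 12 leukocyte markers summed to 0.412–1.19 CPM in any library, and 1, 3 and 5 of them were at 0 throughout siNC, siERRα and imatinib. Endothelial and epithelial markers, chiefly KRT18, summed to 304–316 CPM in siNC, 281–304 CPM in siERRα and 196–225 CPM in imatinib. The share of counts from mitochondrially encoded genes was 0.846–0.989% in siNC, 0.943–1.03% in siERRα and 1.48–1.54% in imatinib, so it moved with imatinib, and its part in the imatinib results below was not tested. In bulk RNA, fewer cells that express a gene and less RNA per cell cannot be told apart.

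After ERRα knockdown the response was split. BATF2, GBP3, GBP4, IFIT3, IRF1, TAP1, TAP2 and TAPBP were among the genes that rose, whereas GBP1, OAS2, IFITM2, IFI44, MX1, PARP9, HLA-B and HLA-C were among those that fell. Of the 43 tested members, 10 rose, 9 fell and 24 did not pass the test (adjusted p under 0.05). These 19 calls were 44.2% of the members tested, beside 23.9% of all genes tested (11.4% higher and 12.6% lower). The median log2 fold change of the members was 0.02, and that of all genes was 0.01. Where a log2 fold change of 0.5 or more in size was required too, 3 members rose (BATF2, GBP4 and TAP2) and 5 fell (OAS2, IFI44, IFITM2, SAMD9L and GBP1), where 7.26% of all genes met both limits (1.98% higher and 5.28% lower).

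With imatinib, the class I heavy chains HLA-B, HLA-C and HLA-E rose along with IFI6, STAT2 and IFITM2, and 13 members fell, among them GBP1, GBP3, GBP4, BATF2, TAP1, TAP2, NLRC5 and IFI44. The counts were 6 higher, 13 lower and 24 that did not pass. That was again 44.2% of the 43 members, and here 41.7% of all genes tested were called (21.4% higher and 20.3% lower), so the share of members called lay near the background. The median log2 fold change was -0.03 for members and 0.00 for all genes. The stricter limits left 3 members higher (IFI6, HLA-C and HLA-B) and 6 lower (BATF2, GBP4, TAP2, IFI44, NLRC5 and GBP3), beside 17.6% of all genes (10.6% higher and 7.02% lower). Both comparisons share the siNC libraries, so knockdown was also set directly against imatinib: 14 members were higher in siERRα, 8 were lower and 21 did not pass, which is 51.2% of members beside 52.2% of all genes (25.6% higher and 26.6% lower). With both limits 8 members were higher in siERRα and 5 lower, beside 26.3% of all genes (10.6% higher and 15.7% lower).

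**Figure D1:**
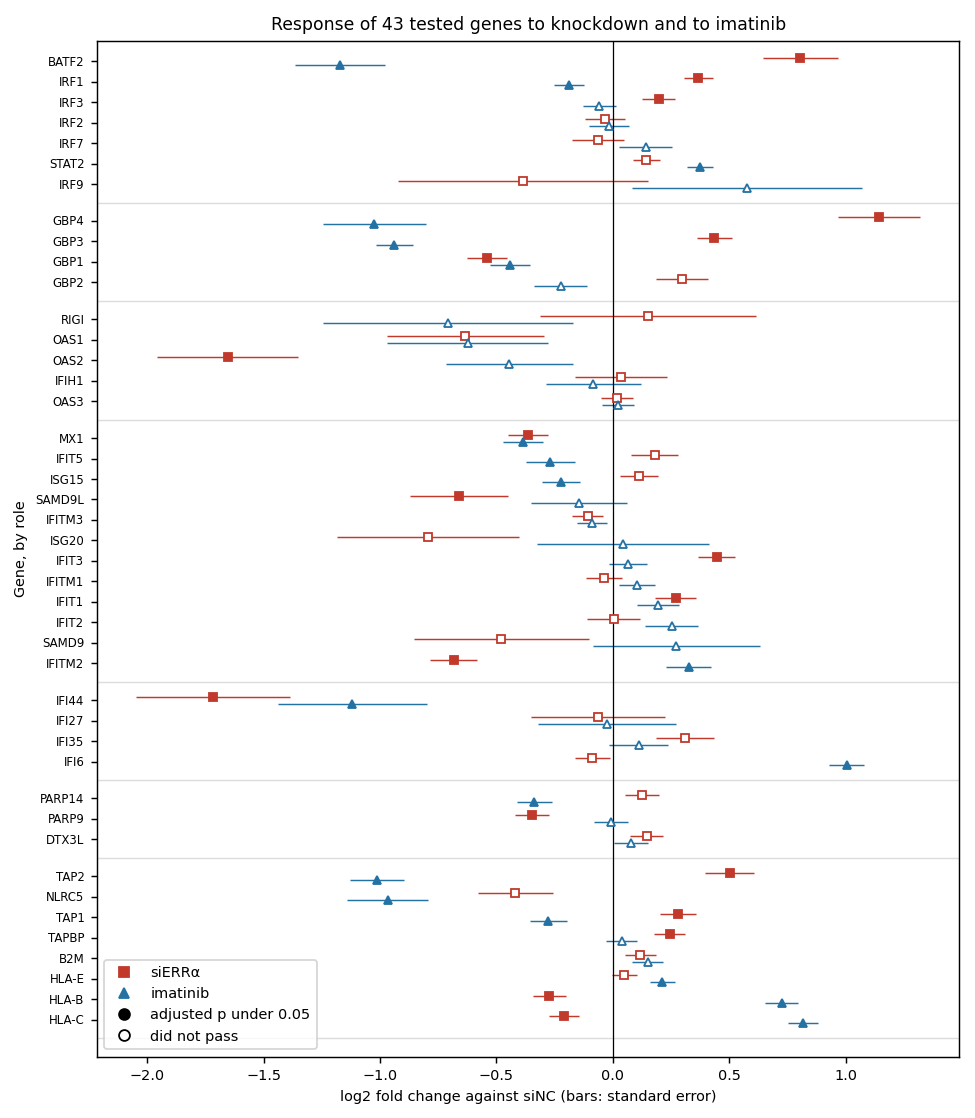
Log2 fold change against siNC (x axis) of the 43 tested genes (y axis, grouped by role) after ERRα knockdown (red squares) and imatinib (blue triangles), with bars for the standard error and filled symbols for an adjusted p under 0.05. GBP3, GBP4, BATF2 and TAP2 lie to the right for knockdown and to the left for imatinib, HLA-B and HLA-C lie the other way, and GBP1, MX1 and IFI44 lie to the left for both.

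The promoters were read next, since many of these genes are known to carry an ISRE. RefSeq windows (GRCh38.p14), which run from 250 bases before to 50 bases after a transcription start, were matched for 36 of the 48 members. The 12 members without a window were IRF2, IRF3, IRF7, GBP2, GBP5, OAS2, OASL, IFIT2, IFITM2, MX2, HLA-E and NLRC5. The ISRE core, read as GAAA, any 2 bases and GAAA on either strand, was found for 25 of the 36 members (69.4%), and in 3.57% of all 35116 windows (4.38% of 27305 genes). The GAS core TTCNNNGAA was found for 10 of the 36 members (27.8%) and in 7.66% of all windows (9.38% of genes). The ERR response element TNAAGGTCA, which ERRα is known to bind, was found in no member's window and in 0.951% of all windows (1.17% of genes). ISRE and GAS matches overlapped in IFITM1, MX1 and IFI27, and a match describes letters only. Of the members that rose after knockdown 7 of 9 with a window held an ISRE core, as did 4 of 7 that fell and 13 of 18 that did not pass. For imatinib it was 1 of 4 that rose, 10 of 12 that fell and 13 of 18 that did not pass.

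A selection of the matches is printed here 5′ to 3′ along the gene, with the ISRE core in capitals (as TTTC, 2 bases and TTTC where it lies on the other strand), because genes with like elements differed in their response. All but DTX3L were called in at least 1 comparison against siNC, and DTX3L is shown for the element it shares with PARP9; the called members IFIT1, IFIT5, ISG15 and PARP14 also held a core and are not shown. Shorter stretches are given where the annotation places the element in or beside an exon.
GBP1, chr1:89065316-89065345, minus strand: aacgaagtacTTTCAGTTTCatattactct
GBP3, chr1:89022845-89022874, minus strand: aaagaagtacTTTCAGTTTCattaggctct
GBP4, chr1:89198927-89198956, minus strand: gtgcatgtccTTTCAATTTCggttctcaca
TAP1, chr6:32853804-32853863, minus strand: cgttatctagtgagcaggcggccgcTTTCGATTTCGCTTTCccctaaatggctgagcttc
TAP2, chr6:32838778-32838807, minus strand: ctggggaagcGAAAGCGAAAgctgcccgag
TAPBP, chr6:33314079-33314108, minus strand: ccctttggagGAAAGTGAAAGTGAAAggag
IFIT3, chr10:89332410-89332469, plus strand: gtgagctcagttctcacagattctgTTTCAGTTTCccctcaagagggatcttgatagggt
MX1, chr21:41420559-41420586, plus strand: gagcagaaatGAAACCGAAActgaattg
IFI44, chr1:78649746-78649805, plus strand: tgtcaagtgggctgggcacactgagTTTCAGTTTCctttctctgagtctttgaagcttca
IFI6, chr1:27672273-27672332, minus strand: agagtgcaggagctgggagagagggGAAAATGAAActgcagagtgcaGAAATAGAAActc
DTX3L, chr3:122564322-122564351, plus strand: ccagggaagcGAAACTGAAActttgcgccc
GBP1, GBP3, IFI44 and the second IFIT3 window all held TTTCAGTTTC, and the stretches beside it were alike in GBP1 and GBP3. TAP1 and TAPBP each held overlapping pairs of cores, and IFI6 held 3 cores in all, of which 2 are shown. The DTX3L element, at chr3:122564332-122564341, was also the match of PARP9, which starts on the opposite strand.

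**Figure D2:**
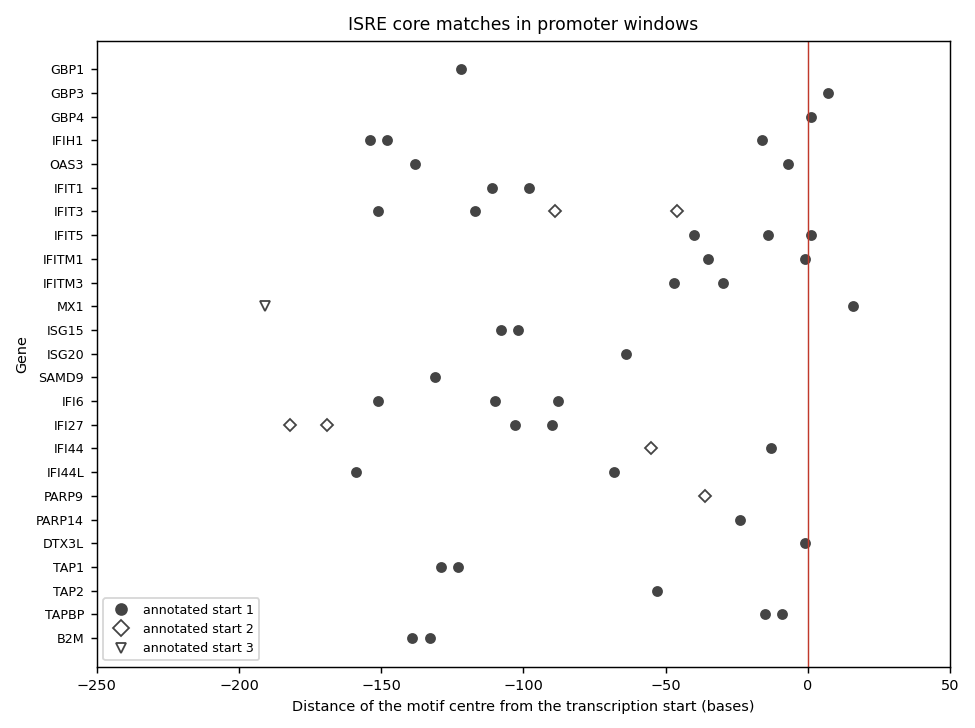
Distance from the transcription start (x axis, bases; negative values lie before the start) of the centre of each ISRE core in the 25 genes that held a match (y axis). Symbols separate alternative annotated starts, and the 48 points lie between -191 and 16 bases.

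Levels differed widely among the members. Per kilobase of annotated exon (CPM per kb, the mean of the 3 groups), IFITM3 was highest at 289 CPM per kb, followed by B2M at 111, HLA-E at 48.8, HLA-C at 30.03, ISG15 at 23.2 and IFI6 at 21.3 CPM per kb. IFITM3 restricts virus entry from endosomes. In the siNC libraries it measured 809, 911 and 860 CPM, in the siERRα libraries 852, 740 and 801 CPM, and in the imatinib libraries 811, 749 and 867 CPM. The ranges overlapped in all 3 groups, and neither the knockdown (log2 fold change -0.11, SE 0.07) nor imatinib (-0.09, SE 0.07) passed the test. At the other end, IFI44L, MX2, GBP5, IFI16 and OASL did not pass the filter. Their counts over the 9 libraries were 0–8 for IFI44L, 0–2 for MX2, 0–5 for GBP5, 0–5 for IFI16, a sensor of DNA, and 1–9 for OASL, so changes in these 5 genes were not detectable at this depth. Just inside the filter were RIGI (3–17 counts), IRF9 (3–21), SAMD9 (9–23), ISG20 (7–29), IFI27 (19–34) and IFI44 (9–46). The coefficient of variation between the 3 libraries of a group had a median over the tested members of 5.93% in siNC, 7.91% in siERRα and 8.73% in imatinib.

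**Figure D3:**
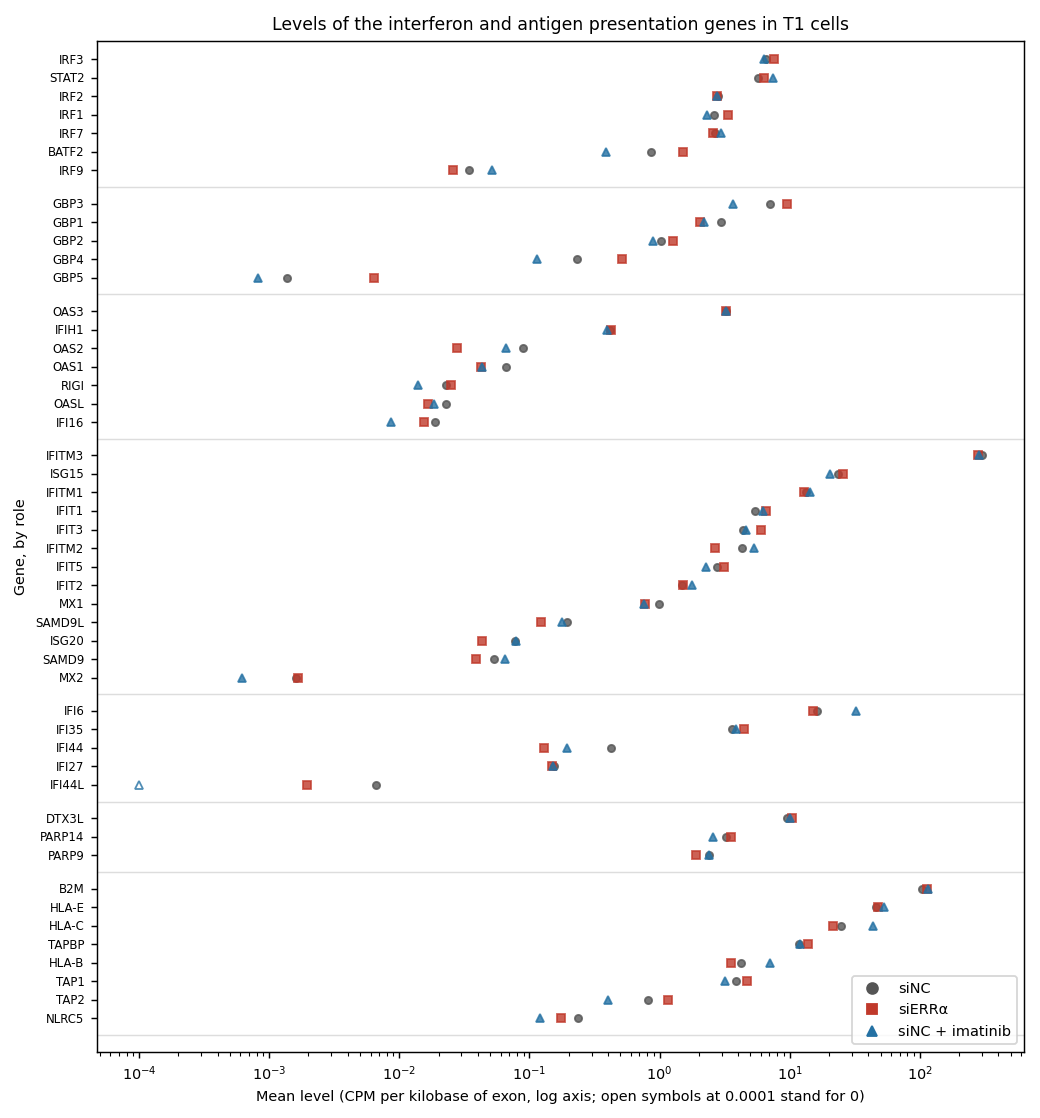
Mean level of the 48 genes (y axis, by role) in CPM per kilobase of exon (x axis, log scale) in siNC (grey circles), siERRα (red squares) and imatinib (blue triangles); an open symbol stands for 0. IFITM3, B2M and HLA-E are highest, and GBP5, MX2 and IFI44L lie lowest of their roles.

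Among the 21 interferon ligand genes, 18 were at 0 in all 9 libraries, and the highest count of the other 3 was 2 (IFNW1), so none could be tested. All 9 receptor and kinase genes were tested. After knockdown 3 of them fell and 0 rose (likewise 0 by DESeq2 and limma-voom, and 0 where p was left unadjusted), and with imatinib 1 rose and 2 fell. The share called was 33.3% in each, beside 23.9% and 41.7% of all genes. IFNGR2, the signalling chain of the interferon-γ receptor, measured 29.7, 32.7 and 28.6 CPM in siNC, 25.7, 27.8 and 25 CPM in siERRα and 37.7, 35.0 and 38.4 CPM in imatinib. The 3 groups did not overlap (knockdown -0.21, SE 0.07, edgeR adjusted p = 0.0428; imatinib 0.29, SE 0.07, edgeR adjusted p = 3.31e-03). The knockdown call of IFNGR2 lay near the threshold and was not checked by leaving out libraries. IL10RB, a shared chain of the interferon-λ and IL-10 receptors, averaged 2.34 ± 0.446 CPM in siNC, 1.503 ± 0.189 CPM in siERRα and 2.65 ± 0.436 CPM in imatinib (SD, n = 3) and fell after knockdown by 0.64 on the log2 scale (SE 0.19, edgeR adjusted p = 0.0174). IFNGR1, the ligand-binding chain for interferon-γ, fell with imatinib by 0.24 (SE 0.07, edgeR adjusted p = 0.0119), from 34.6 ± 0.931 to 29.2 ± 2.31 CPM (SD, n = 3).

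Of the 7 transcription factors, 3 rose and 0 fell after knockdown (likewise 0 by DESeq2 and limma-voom, and 0 where p was left unadjusted), and with imatinib 1 rose and 2 fell. In each comparison 42.9% of them were called, beside 23.9% of all genes after knockdown and 41.7% with imatinib. BATF2, a basic leucine zipper factor induced by interferon, measured 2.53, 2.21 and 2.58 CPM in siNC, 3.94, 3.56 and 5.40 CPM in siERRα and 1.17, 1.08 and 1.01 CPM in imatinib. All siERRα libraries were above and all imatinib libraries below those of siNC. Its log2 fold change was 0.80 after knockdown (SE 0.16, edgeR adjusted p = 1.03e-03) and -1.17 with imatinib (SE 0.19, edgeR adjusted p = 7.41e-05), and siERRα stood 1.98 above imatinib (SE 0.18, edgeR adjusted p = 3.79e-08). IRF1, which drives transcription of class I and GBP genes, measured 31.8, 33.1 and 31.5 CPM in siNC, 41.6, 42.5 and 40.1 CPM in siERRα and 28.5, 27.8 and 28.4 CPM in imatinib. It rose by 0.37 after knockdown (SE 0.06, edgeR adjusted p = 2.31e-04). With imatinib it fell by 0.19 (SE 0.06, edgeR adjusted p = 0.0238), a call lost without siNC 1, siNC 2 or imatinib 2, where the adjusted p lay between 0.0538 and 0.0678. An antisense gene, IRF1-AS1, lies over part of the IRF1 exons, and reads of the pair cannot be told apart without strand.

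STAT2 measured 53.8, 53.9 and 52.3 CPM in siNC, 59.9, 57.9 and 59.0 CPM in siERRα and 70.5, 69.8 and 67.0 CPM in imatinib. The imatinib libraries were the highest, with a log2 fold change of 0.37 (SE 0.06, edgeR adjusted p = 3.10e-05). For the knockdown it was 0.14 (SE 0.06, edgeR adjusted p = 0.0748). IRF3, the factor that acts downstream of the nucleic acid sensors, averaged 24.9 ± 1.01 CPM in siNC and 28.5 ± 0.514 CPM in siERRα (SD, n = 3). Its call after knockdown (0.20, SE 0.07, edgeR adjusted p = 0.0475) was lost without siNC 1, 2 or 3, siERRα 1 or 3, or imatinib 2 or 3, with adjusted p between 0.0529 and 0.216. BCL2L12 lies antisense to 19.3% of the IRF3 exon length. IRF2, IRF7 and IRF9 passed in neither comparison: IRF2 averaged 18.5–18.9 CPM and IRF7 6.68–7.69 CPM over the groups, while IRF9 stayed at or below 0.566 CPM in every library. Another annotated gene shares 23.9% of the IRF9 exon length on the same strand. How reads of the overlap were counted is not known, so the low IRF9 level is uncertain.

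The GBPs are interferon-induced GTPases that coat intracellular pathogens. Their 5 genes here lie close together on chromosome 1 in the order GBP3, GBP1, GBP2, GBP4, GBP5, all on the minus strand. They are 28987 to 57246 bases apart, and their calls differed in direction. GBP3 (chr1:89006679-89022894) measured 32.3, 27.8 and 30.9 CPM in siNC, 39.2, 44.6 and 39.4 CPM in siERRα and 16.5, 15 and 16 CPM in imatinib. No group overlapped another, with log2 fold changes of 0.44 after knockdown (SE 0.08, edgeR adjusted p = 2.90e-04) and -0.94 with imatinib (SE 0.08, edgeR adjusted p = 2.57e-08). The direct difference between siERRα and imatinib was 1.38 (SE 0.08, edgeR adjusted p = 6.70e-11).

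GBP4 (chr1:89181144-89198942) followed the pattern of GBP3 at a lower level. It measured 1.81, 1.35 and 1.11 CPM in siNC, 3.12, 3.01 and 3.29 CPM in siERRα and 0.623, 0.728 and 0.738 CPM in imatinib. Its log2 fold change was 1.14 after knockdown (SE 0.18, edgeR adjusted p = 9.25e-05), the largest rise of any tested member, and -1.02 with imatinib (SE 0.22, edgeR adjusted p = 9.91e-04). The direct difference was 2.17 (SE 0.20, edgeR adjusted p = 4.22e-08). GBP1 (chr1:89051882-89065360) instead fell in both comparisons, from 18.4, 17.3 and 18.5 CPM in siNC to 12.7, 13.6 and 10.8 CPM in siERRα and to 13.3 CPM in each imatinib library. The falls were 0.54 (SE 0.09, edgeR adjusted p = 1.12e-04) and 0.44 (SE 0.09, edgeR adjusted p = 3.84e-04), and siERRα and imatinib overlapped (difference -0.10, SE 0.09, edgeR adjusted p = 0.369). GBP2 measured 8.59, 6.62 and 7.20 CPM in siNC, 9.37, 9.89 and 8.26 CPM in siERRα and 6.07, 6.95 and 6.18 CPM in imatinib. It passed neither test against siNC (0.30, edgeR adjusted p = 0.0568; -0.22, edgeR adjusted p = 0.128), while siERRα and imatinib differed by 0.52 (SE 0.11, edgeR adjusted p = 7.12e-04). GBP7, which is not a member, shares 8.6% of the GBP2 exon length on the same strand. The GBP genes are close in sequence, and no source used here says how reads shared between them were counted.

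The MHC class I pathway moved in parts. The transporter genes rose after knockdown and fell with imatinib, and the heavy chains HLA-B and HLA-C did the reverse. TAP2 (chr6:32821833-32838739) measured 8.52, 8.04 and 8.73 CPM in siNC, 11.9, 11.8 and 12.2 CPM in siERRα and 3.39, 4.18 and 4.97 CPM in imatinib. Its log2 fold changes were 0.50 (SE 0.10, edgeR adjusted p = 1.51e-03) and -1.01 (SE 0.12, edgeR adjusted p = 1.16e-06), and the direct difference was 1.52 (SE 0.11, edgeR adjusted p = 2.25e-09). Another annotated gene shares 19.5% of the TAP2 exon length on the same strand. TAP1 (chr6:32845209-32853816), which lies 6469 bases away on the same strand, measured 18.2, 19.0 and 17.5 CPM in siNC, 22.5, 21.6 and 22.3 CPM in siERRα and 13.8, 16.4 and 14.8 CPM in imatinib. The groups did not overlap, and the log2 fold changes were 0.28 (SE 0.08, edgeR adjusted p = 0.0113) and -0.28 (SE 0.08, edgeR adjusted p = 8.82e-03). PSMB8-AS1 lies antisense to part of the TAP1 exons. The rise of TAP1 after knockdown was lost without siNC 3 (edgeR adjusted p = 0.0854). Summed over both transporter genes, the level was 26.2–27.0 CPM in siNC, 33.3–34.5 CPM in siERRα and 17.2–20.6 CPM in imatinib.

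HLA-B (chr6:31353872-31367067) measured 19.8, 20.6 and 18.7 CPM in siNC, 16.2, 15.9 and 16.8 CPM in siERRα and 33.2, 33.2 and 31.3 CPM in imatinib. It fell after knockdown by 0.27 (SE 0.07, edgeR adjusted p = 8.50e-03) and rose with imatinib by 0.73 (SE 0.07, edgeR adjusted p = 1.23e-07). HLA-C (chr6:31268749-31272130) measured 57.2, 65.9 and 63.7 CPM in siNC, 55.0, 50.9 and 55.5 CPM in siERRα and 111, 111 and 107 CPM in imatinib. With imatinib it rose by 0.82 (SE 0.06, edgeR adjusted p = 8.38e-09). Its fall after knockdown (-0.21, SE 0.06, edgeR adjusted p = 0.0219) was lost without siNC 2, siNC 3 or siERRα 2 (adjusted p 0.0524–0.0884). Between siERRα and imatinib, HLA-B differed by -0.999 (SE 0.07, edgeR adjusted p = 9.59e-10) and HLA-C by -1.03 (SE 0.06, edgeR adjusted p = 1.79e-10). HLA genes are highly alike and differ between alleles, so reads may be split between them, and DHFRP2 shares 32.7% of the HLA-B exon length on the same strand.

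HLA-E, a class I molecule read mainly by natural killer cells, measured 132, 139 and 130 CPM in siNC, 142, 137 and 137 CPM in siERRα and 149, 157 and 159 CPM in imatinib. It rose with imatinib by 0.21 (SE 0.05, edgeR adjusted p = 3.57e-03), less than the fitted rises of HLA-B and HLA-C, and siERRα overlapped siNC (0.05, SE 0.05, edgeR adjusted p = 0.560). B2M, the light chain of every class I molecule, measured 334, 317 and 326 CPM in siNC, 335, 382 and 343 CPM in siERRα and 333, 398 and 352 CPM in imatinib, and passed in neither comparison (0.12, SE 0.07, edgeR adjusted p = 0.218; 0.15, SE 0.07, edgeR adjusted p = 0.0785). TAPBP (tapasin) averaged 78.0 ± 2.37 CPM in siNC, 92.4 ± 4.50 CPM in siERRα and 80.1 ± 7.30 CPM in imatinib (SD, n = 3). It rose after knockdown by 0.25 (SE 0.07, edgeR adjusted p = 0.0109), a call lost without siNC 1 (0.0527) or siERRα 1 (0.0622). An antisense gene lies over 21.0% of the TAPBP exon length. NLRC5 measured 2.55, 3.26 and 2.92 CPM in siNC, 2.35, 1.96 and 2.21 CPM in siERRα and 1.52, 1.21 and 1.72 CPM in imatinib. It fell with imatinib by 0.97 (SE 0.17, edgeR adjusted p = 1.67e-04), in the group where HLA-B and HLA-C were highest, and its knockdown value was -0.42 (SE 0.16, edgeR adjusted p = 0.0665).

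**Figure D4:**
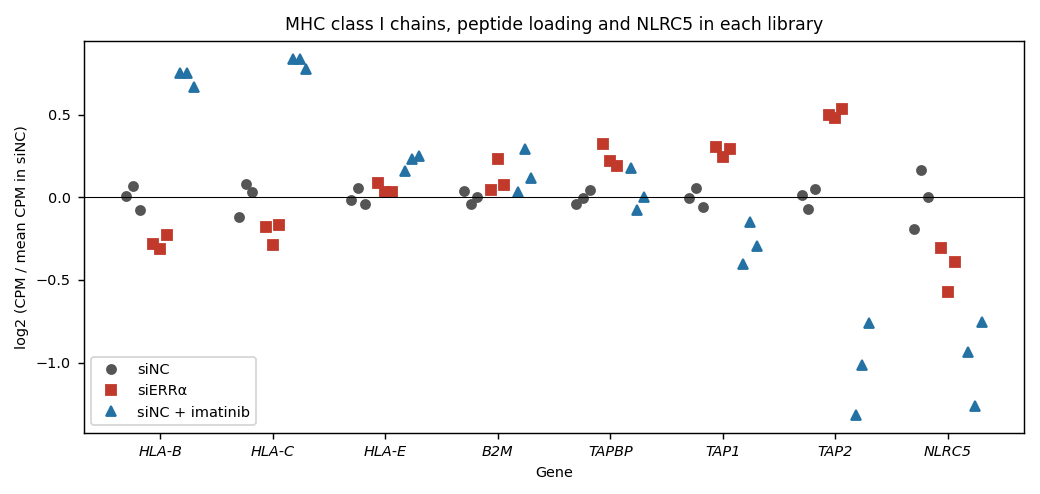
Level in each of the 9 libraries, as log2 of CPM over the mean CPM in siNC (y axis), for the 8 antigen presentation genes (x axis) in siNC (grey circles), siERRα (red squares) and imatinib (blue triangles). HLA-B and HLA-C stand above siNC with imatinib while TAP1, TAP2 and NLRC5 stand below it, and after knockdown TAP1 and TAP2 stand above it.

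Beyond the members, 21 of 22 other MHC class I and peptide-loading genes were tested: 10 rose and 2 fell after knockdown, and 10 rose and 4 fell with imatinib. The shares called were 57.1% after knockdown and 66.7% with imatinib, beside 23.9% and 41.7% of all genes. PSME1, a subunit of the proteasome activator PA28, rose in both, from 31.8 ± 1.18 CPM in siNC to 37.2 ± 1.37 CPM in siERRα (0.22, SE 0.07, edgeR adjusted p = 0.0204) and 48.4 ± 3.09 CPM in imatinib (0.61, SE 0.07, edgeR adjusted p = 8.08e-07; SD, n = 3). CALR, the calreticulin chaperone of the loading complex, was at 1732 ± 55.3, 1990 ± 58.2 and 2372 ± 67.5 CPM in siNC, siERRα and imatinib (SD, n = 3), a rise of 0.20 (SE 0.05, edgeR adjusted p = 6.64e-03) and of 0.45 (SE 0.05, edgeR adjusted p = 8.28e-07). TAPBPL, a tapasin-related peptide editor, rose with imatinib by 0.85 (SE 0.10, edgeR adjusted p = 8.24e-07). Of 12 MHC class II genes only 4 could be tested. CTSS, the protease cathepsin S, rose after knockdown (0.39, SE 0.09, edgeR adjusted p = 3.28e-03) and fell with imatinib (-0.29, SE 0.09, edgeR adjusted p = 0.0185), while CIITA, CD74 and HLA-DMA averaged at most 0.435 CPM in any group and did not pass.

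Of the 5 nucleic acid sensors that were tested, OAS2 fell after knockdown and the other 4 did not pass (20% called, beside 23.9% of all genes). With imatinib 0 of 5 passed by edgeR, DESeq2 or limma-voom, and 0 had an unadjusted p under 0.05, where edgeR called 41.7% of all genes. However, RIGI (-0.71, SE 0.54), OAS1 (-0.62, SE 0.35) and OAS2 (-0.44, SE 0.27) had low counts and wide errors with imatinib, so changes in them could have been missed. OAS2, which makes 2′-5′ oligoadenylates that activate RNase L, measured 1.01, 0.967 and 1.05 CPM in siNC, 0.335, 0.400 and 0.206 CPM in siERRα and 0.922, 0.512 and 0.793 CPM in imatinib. The siERRα libraries were below all others, with a log2 fold change of -1.66 (SE 0.30, edgeR adjusted p = 4.69e-04) against siNC and -1.21 (SE 0.32, edgeR adjusted p = 3.64e-03) against imatinib. Its neighbours on chromosome 12 did not pass. OAS3, the most abundant OAS gene, averaged 58.1 ± 2.15, 58.8 ± 1.05 and 59.0 ± 6.34 CPM in siNC, siERRα and imatinib (SD, n = 3; 0.02 in both comparisons, SE 0.07). OAS1 measured 0.537, 1.07 and 0.992 CPM in siNC, 0.608, 0.610 and 0.438 CPM in siERRα and 0.651, 0.755 and 0.273 CPM in imatinib, and these ranges overlapped (-0.63, SE 0.34, edgeR adjusted p = 0.192; -0.62, SE 0.35, edgeR adjusted p = 0.161). IFIH1 averaged 2.05–2.21 CPM and RIGI 0.145–0.257 CPM over the groups, and a second annotated gene shares 43.2% of the RIGI exon length on the same strand. Of the 12 sensing adaptors and kinases tested, 0 passed after knockdown by edgeR, beside 23.9% of all genes. By edgeR 4 of them had an unadjusted p under 0.05 (all higher), and DESeq2 called 1 and limma-voom 0. With imatinib 2 rose and 4 fell (50% called, beside 41.7% of all genes). TRIM25, the ubiquitin ligase that acts on RIG-I, rose by 0.27 with imatinib (SE 0.05, edgeR adjusted p = 6.36e-04), and TLR3, the endosomal receptor for double-stranded RNA, fell by 0.43 (SE 0.10, edgeR adjusted p = 1.87e-03).

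Among the 12 antiviral effectors tested, 2 rose and 3 fell after knockdown, and 1 rose and 3 fell with imatinib. These were 41.7% of the effectors after knockdown (all genes 23.9%) and 33.3% with imatinib (all genes 41.7%). IFITM2, a membrane protein that restricts virus entry, measured 7.0, 6.77 and 6.85 CPM in siNC, 4.28, 4.06 and 4.53 CPM in siERRα and 9.08, 8.19 and 8.58 CPM in imatinib. The 3 groups were apart from each other: it fell by 0.68 after knockdown (SE 0.10, edgeR adjusted p = 5.53e-05) and rose by 0.33 with imatinib (SE 0.10, edgeR adjusted p = 0.0105). IFITM1, which lies 643 bases away, averaged 21.7–23.9 CPM in the 3 groups and passed in neither. On the same strand, 21.1% of the IFITM1 exon length is shared with another annotated gene. The IFITM genes are near copies of each other, so the split of reads between them is uncertain. IFIT3, one of the IFIT family that binds foreign RNA, measured 22.9, 22.5 and 21.5 CPM in siNC, 27.5, 32.9 and 30.7 CPM in siERRα and 23.4, 25.3 and 21.2 CPM in imatinib. Every siERRα library was above all others (0.45, SE 0.08, edgeR adjusted p = 4.56e-04), while imatinib overlapped siNC (0.06, SE 0.08, edgeR adjusted p = 0.566).

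IFIT1 averaged 25 ± 0.482 CPM in siNC and 30.1 ± 3.62 CPM in siERRα (SD, n = 3). Its rise of 0.27 (SE 0.09, edgeR adjusted p = 0.0310) was lost without siNC 1, 2 or 3 (adjusted p 0.0620–0.0935) and fell to 0.16 without siERRα 2 (edgeR adjusted p = 0.150). IFIT2 averaged 6.46–7.71 CPM over the groups and did not pass. IFIT5 averaged 12 ± 1.02, 13.7 ± 0.856 and 10.0 ± 1.49 CPM in siNC, siERRα and imatinib (SD, n = 3). It passed with imatinib (-0.27, SE 0.10, edgeR adjusted p = 0.0465), but not without siNC 1 or 3, siERRα 1 or 3, or imatinib 1 or 3 (adjusted p 0.0517–0.181).

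MX1, the dynamin-like GTPase MxA, fell in both comparisons. It measured 18.5, 18 and 17 CPM in siNC, 14.3, 15.1 and 12.1 CPM in siERRα and 13.4, 13.6 and 14.0 CPM in imatinib, which gave -0.36 (SE 0.09, edgeR adjusted p = 3.92e-03) and -0.39 (SE 0.09, edgeR adjusted p = 1.40e-03), and siERRα and imatinib overlapped. SAMD9L, an inhibitor of translation, measured 1.79, 1.37 and 1.51 CPM in siNC, 1.09, 0.842 and 1.03 CPM in siERRα and 1.30, 1.75 and 1.18 CPM in imatinib. Its fall after knockdown (-0.66, SE 0.21, edgeR adjusted p = 0.0276) was lost without siNC 1 or 3 or siERRα 2 or 3 (adjusted p 0.0513–0.130). ISG15, a ubiquitin-like modifier, averaged 20.5 ± 2.23, 22.2 ± 0.752 and 17.6 ± 0.561 CPM in siNC, siERRα and imatinib (SD, n = 3). It passed with imatinib (-0.22, SE 0.08, edgeR adjusted p = 0.0349), but not without siNC 1 or any imatinib library (adjusted p 0.0508–0.104), and without siNC 2 the value was -0.14 (edgeR adjusted p = 0.198). ISG20 and SAMD9 stayed at or below 0.793 CPM in every library and did not pass.

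**Figure D5:**
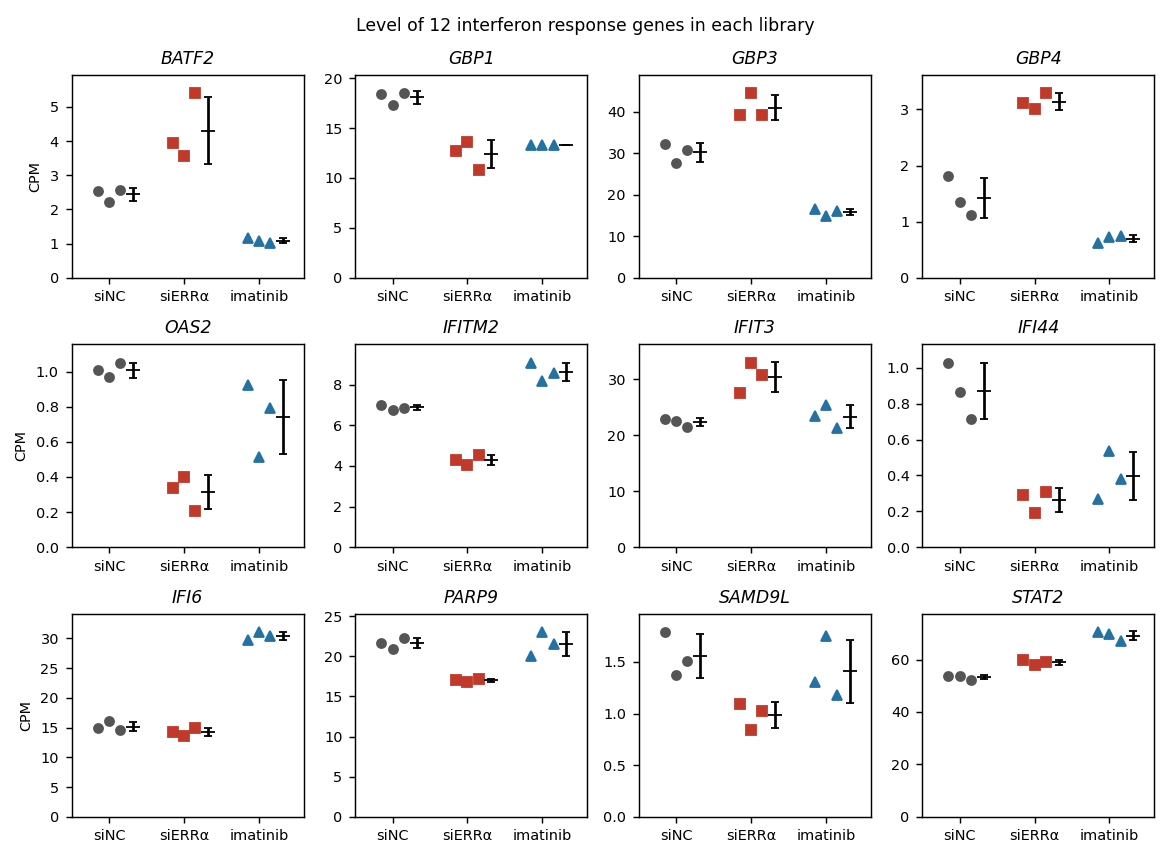
Level in CPM (y axes, from 0) of 12 interferon response genes in each library of siNC (grey circles), siERRα (red squares) and imatinib (blue triangles), with the mean and SD of each group beside its points (n = 3). GBP3, GBP4 and BATF2 are highest after knockdown and lowest with imatinib, OAS2 and PARP9 are lowest after knockdown, and IFI6 and STAT2 are highest with imatinib.

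IFI6, a small mitochondrial and endoplasmic reticulum protein that limits cell death, measured 14.9, 16 and 14.6 CPM in siNC, 14.3, 13.5 and 15 CPM in siERRα and 29.8, 31.1 and 30.3 CPM in imatinib. The imatinib libraries stood apart from all others (1.00, SE 0.07, edgeR adjusted p = 3.23e-09), the largest rise of any member with imatinib, and the knockdown value was -0.09 (SE 0.07, edgeR adjusted p = 0.447). LINC02574 shares 23.1% of the IFI6 exon length on the same strand. IFI44 measured 1.03, 0.865 and 0.715 CPM in siNC, 0.293, 0.189 and 0.309 CPM in siERRα and 0.271, 0.539 and 0.383 CPM in imatinib, corresponding to 9–46 counts. It fell in both comparisons, by 1.72 (SE 0.33, edgeR adjusted p = 7.81e-04) and by 1.12 (SE 0.32, edgeR adjusted p = 8.46e-03). IFI35 averaged 7.09–8.77 CPM and IFI27 0.613–0.638 CPM over the groups, and neither passed.

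PARP9 and DTX3L encode a complex of an ADP-ribosyltransferase and a ubiquitin ligase, and their annotated spans overlap head to head by 240 bases on chromosome 3. PARP9 measured 21.7, 20.9 and 22.2 CPM in siNC, 17, 16.9 and 17.2 CPM in siERRα and 20.0, 23 and 21.5 CPM in imatinib. It was lowest in the siERRα libraries (-0.35, SE 0.07, edgeR adjusted p = 1.69e-03), and imatinib overlapped siNC (-0.01, SE 0.07, edgeR adjusted p = 0.945). DTX3L averaged 54.6 ± 1.92, 60.3 ± 5.89 and 57.7 ± 3.31 CPM in siNC, siERRα and imatinib (SD, n = 3) and passed in neither (0.14, SE 0.07, edgeR adjusted p = 0.161; 0.08, SE 0.07, edgeR adjusted p = 0.406). PARP14, another ADP-ribosyltransferase, measured 33.4, 33.3 and 32.9 CPM in siNC, 34.7, 40.0 and 34.0 CPM in siERRα and 27.4, 26.6 and 24.9 CPM in imatinib. It fell with imatinib by 0.34 (SE 0.07, edgeR adjusted p = 1.12e-03).

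Feedback regulators and further interferon-stimulated genes, none of them members, were also called in both directions. Of 11 feedback regulators tested, 2 rose and 2 fell after knockdown, and 3 rose and 4 fell with imatinib (36.4% and 63.6% called, beside 23.9% and 41.7% of all genes). SOCS3, an inhibitor of JAK signalling, averaged 39.4 ± 1.87, 39.5 ± 0.878 and 24.2 ± 1.82 CPM in siNC, siERRα and imatinib (SD, n = 3) and fell with imatinib by 0.70 (SE 0.07, edgeR adjusted p = 2.12e-07). PTPN6, the phosphatase SHP-1, rose with imatinib by 0.75 (SE 0.12, edgeR adjusted p = 6.09e-05). Of 41 further interferon-stimulated genes tested, 10 rose and 6 fell after knockdown (39% called, all genes 23.9%), and 10 rose and 12 fell with imatinib (53.7% called, all genes 41.7%). UBE2L6, the conjugating enzyme for ISG15, measured 100 CPM or more in every siNC and imatinib library and averaged 62.6 ± 5.24 CPM in siERRα (SD, n = 3), a fall of 0.73 (SE 0.07, edgeR adjusted p = 1.61e-07). BST2 (tetherin) and LGALS3BP rose with imatinib by 0.52 (SE 0.06, edgeR adjusted p = 4.61e-07) and 0.68 (SE 0.06, edgeR adjusted p = 8.82e-08).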

How the data were processed

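The deposited values were raw counts of reads per gene symbol. The authors used STAR 2.7.3a for alignment of paired-end reads (build GRCh38) and featureCounts 2.0.1 for counting, with versions from the submitters' processing notes. Strand use, multi-mapped reads and the annotation release: not given in the sources used here. A deposited table of group labels was not used.

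Counts were analysed in edgeR 4.0.16 (R 4.3.3) with TMM scaling, filterByExpr (minimum count 10, minimum total 15) and the robust quasi-likelihood F-test, with all 9 libraries in 1 fit. p-values were adjusted by Benjamini-Hochberg over the 16976 genes tested, and 0.05 was the threshold. The SE of a log2 fold change was derived from the F statistic. On simulated counts for siERRα against siNC (16976 genes), all 100 genes changed by 0.7 on the log2 scale were called, with 10 false calls. The changed genes were drawn only from genes of higher mean CPM, so detection of changes in low-count members was not simulated. Gene positions and exon lengths were from GENCODE release 44, joined by symbol, and promoter windows from RefSeq (GRCh38.p14).

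Members and gene lists were chosen with earlier results of these data known. Values were named for members past an absolute log2 fold change of 0.5, the 3 highest per length and the 2 of each role with the smallest p, and for up to 4 genes of each further list. 2 genes this rule would take are not reported here.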

Additional observations from a re-analysis of the deposited data

How the results depend on the processing

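With a log2 fold change of 0.5 or more in size required too, the members called fell to 3 higher and 5 lower for ERRα knockdown, 3 higher and 6 lower for imatinib, and 8 higher and 5 lower for siERRα against imatinib. Leaving out each library in turn gave 7–10 higher and 7–10 lower for knockdown, 6–8 and 10–13 for imatinib, and 12–15 and 8–10 for siERRα against imatinib. The calls among all genes moved too, over 2910–4401, 5794–7780 and 8203–8934, with 17323–17484 genes tested. DESeq2 size factors, the DESeq2 Wald test, limma-voom, other filters, thinned counts, the 6 libraries compared alone and the replicate block gave 9–11 and 7–9, 6–7 and 11–13, and 14 and 7–9. In these settings the calls among all genes were 3652–4150, 6764–7498 and 8362–8889. No member call changed direction. Apart from ESRRA, single genes outside the members were not followed through these settings. The deviations of same-numbered libraries correlated at -0.0996 to 0.147, and those of differently numbered libraries from different groups at -0.133 to 0.0926. The highest values were siERRα 2 with imatinib 2 (0.147) and siERRα 1 with imatinib 1 (0.0950). Nothing says that equal numbers share a plate or day, so they were not treated as pairs. With the replicate block, IRF3 after knockdown (edgeR adjusted p = 0.0772) and IFIT5 and ISG15 with imatinib (0.0524 and 0.0545) no longer passed, and IFI35 after knockdown did (0.0354). Without a filter on low counts, IRF3 after knockdown (0.0996), IRF1 with imatinib (0.0637) and HLA-E in siERRα against imatinib (0.0606) did not pass, and IFI35 after knockdown did (0.0430). IRF3 was also lost with at least 10 counts in every library (0.0563) and with thinned counts (0.0547). The further calls gained were GBP2 after knockdown with limma-voom (0.0497), IFIT1 with imatinib in the 6 libraries compared alone (0.0493), and, in siERRα against imatinib, IFIT2 with thinned counts (0.0447) and SAMD9L with at least 10 counts in every library (0.0481). Genes under about 1 CPM had the widest errors, and 5 members were too low to test.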
